A study of Mus musculus with 2 samples.

Results

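Transcripts of 43 cell cycle genes were counted in single cells of mouse spinal cord, 20 of them genes of S phase, in which DNA is copied, and 23 of them genes of the G2 and M phases, in which the cell prepares for and completes division. The genes were taken by symbol from the 27998 genes of the count matrices, without use of their values, and each of the 43 was found in both libraries. The injured library came from cord that had received lysolecithin, a lipid that strips myelin from axons, 5 days earlier, and the uninjured library from age-matched cord without injury. Each group was 1 library. Mice of both groups carried Cx3cr1-CreER::Rosa26-tdTomato, were of the strain C57BL/6J, and were given 2 intraperitoneal injections of 1 mg 4-OHT (4-hydroxy-tamoxifen, which activates the Cre) in postnatal week 4, and cords were dissected 4 weeks later. The Cx3cr1 promoter drives the tamoxifen-dependent Cre in microglia and other macrophages, and the recombined cells and their descendants keep the red protein tdTomato, by which they were sorted. The number and sex of the animals pooled in a library are not given in the labels.

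Of 2500 sorted cells per library, 580 injured and 705 uninjured barcodes were recovered, and 577 and 695 were kept, with 3095511 and 2093084 unique molecular identifiers (UMIs, counted molecules). The median depth was 4396 UMIs per injured cell and 3003 per uninjured cell. No barcode occurred in both libraries (0 shared). At least 3 of 12 microglial markers were detected in 570 injured and 694 uninjured cells. Levels are UMIs summed over the kept cells of a library and scaled to the library's total UMIs (CPM), and ratios are injured over uninjured on the log2 scale with exact 95% intervals. With 1 library per group these intervals cover counting error only, no difference has a replicate check, and no test between the groups was possible.

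Cells enter the cycle when cyclin-dependent kinases release E2F transcription factors from the retinoblastoma family, and E2F targets then supply the enzymes that license and copy DNA. A later set of genes for spindle, kinetochore and mitotic kinases is held down in resting cells by the DREAM complex, which binds the cell cycle homology region (CHR) of their promoters, and is switched on by B-Myb and FoxM1, often together with NF-Y at CCAAT boxes. Microglia of the healthy adult cord divide rarely, and they are known to proliferate around demyelinated lesions.

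The promoter sequences of both sets are shown first because the sets differed in these elements, which do not depend on the counts. Promoters of 35 of the 43 genes were matched by symbol in the RefSeq table of build GRCm38.p6, each running from 250 bases before to 50 bases after the start. The letters TTTGAA (CHR), CCAAT, and the E2F words TTTCCCGC, TTTCGCGC, TTTGCCGC and TTTGGCGC were searched on both strands, and matches that overlapped were each counted. Capitals mark the matches, on either strand (CCAAT on the other strand reads ATTGG), in 2 genes of mitosis (Ccnb2 and Cdk1) and in 2 of S phase, of which Mcm6 was higher in the injured library and Slbp was not. The windows are chr9:70421505-70421804, chr10:69352863-69353162, chr1:128359656-128359955 and chr5:33652525-33652824, all on the minus strand, and are printed 5′ to 3′ along the gene.
Ccnb2: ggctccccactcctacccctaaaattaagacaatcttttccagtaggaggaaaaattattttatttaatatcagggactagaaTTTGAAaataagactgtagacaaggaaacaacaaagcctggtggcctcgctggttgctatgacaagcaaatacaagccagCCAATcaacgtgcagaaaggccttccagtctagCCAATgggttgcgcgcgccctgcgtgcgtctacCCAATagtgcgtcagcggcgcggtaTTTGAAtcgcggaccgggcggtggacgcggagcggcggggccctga
Cdk1: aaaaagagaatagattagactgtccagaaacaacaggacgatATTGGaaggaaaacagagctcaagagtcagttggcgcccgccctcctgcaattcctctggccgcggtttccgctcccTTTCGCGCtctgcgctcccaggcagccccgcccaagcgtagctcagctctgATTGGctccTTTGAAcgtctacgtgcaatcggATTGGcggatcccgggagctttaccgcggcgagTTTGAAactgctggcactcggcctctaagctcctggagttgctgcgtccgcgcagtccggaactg
Mcm6: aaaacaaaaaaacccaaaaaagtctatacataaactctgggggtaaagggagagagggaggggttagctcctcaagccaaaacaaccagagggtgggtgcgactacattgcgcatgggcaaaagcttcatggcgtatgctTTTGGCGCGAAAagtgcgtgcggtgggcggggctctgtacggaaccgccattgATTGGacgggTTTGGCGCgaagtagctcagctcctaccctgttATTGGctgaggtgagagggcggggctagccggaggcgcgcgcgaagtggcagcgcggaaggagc
Slbp: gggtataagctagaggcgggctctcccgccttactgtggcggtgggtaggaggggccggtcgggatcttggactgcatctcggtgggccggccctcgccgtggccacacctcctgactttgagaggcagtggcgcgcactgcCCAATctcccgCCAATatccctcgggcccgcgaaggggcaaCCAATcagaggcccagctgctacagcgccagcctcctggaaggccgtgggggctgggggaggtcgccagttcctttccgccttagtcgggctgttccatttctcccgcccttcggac
Ccnb2, which encodes cyclin B2, held TTTGAA 2 times and CCAAT 3 times. Cdk1, the mitotic kinase that B cyclins activate, held the same numbers and 1 E2F word. Mcm6, a subunit of the replicative helicase, held 3 E2F words, 2 of them overlapping on opposite strands, and no TTTGAA. Slbp, the histone mRNA binding protein, held CCAAT 3 times and neither of the other motifs.

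TTTGAA was present in 13 of 17 matched genes of mitosis (76.5%) and in 1 of 16 of S phase (6.25%), against 20.2% of all 27025 genes of the table. The 4 genes of mitosis without it were Ccnb1, Birc5, Bub1 and Nusap1, and the S phase gene with it was Mcm2. CCAAT was present in 15 of the 17 (88.2%) and in 10 of the 16 (62.5%), against 41.1% of all genes. An E2F word was present in 7 of the 16 S phase genes (43.8%) and in 1 of the 17 (5.88%), against 2.6% of all genes. Those 7 were Mcm3, Mcm5, Mcm6, Mcm7, Cdt1, Cdc6 and Uhrf1. Of them Mcm3 (log2 ratio of injured over uninjured −0.12), Mcm7 (0.46) and Cdc6 (2.24, 7 UMIs against 1) had intervals that held 0. Rrm2 (2.99) and Dut (2.98), whose intervals lay above 0, held no E2F word. A match in these windows describes letters and is not evidence of binding. Hmgb2 and Cks2, which are also expressed outside division, are left out of the 17. Mcm4, Gins2, Ccne2, Tipin, Tpx2, Aurkb, Ccna2 and Pbk were not matched.

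The G2 and M phase genes were far higher in the injured library. Summed over the 21 of them that exclude Hmgb2 and Cks2, they held 1167 injured UMIs (377 CPM) against 71 uninjured UMIs (33.9 CPM), a log2 ratio of 3.47 (3.13 to 3.84). The 20 S phase genes held 2032 injured UMIs (656 CPM) against 1075 uninjured UMIs (514 CPM), a log2 ratio of 0.35 (0.25 to 0.46). In a summed level, more cells with a transcript and more transcript per cell cannot be told apart, so cells are described separately below. Across all 9066 genes with at least 20 UMIs over both libraries, the injured library was at least 2-fold higher for 7.22% and at least 2-fold lower for 11.5%, with a median log2 ratio of −0.15. These are 655 and 1044 genes. TMM factors added 0.15 to every log2 ratio and gave 797 and 786, and DESeq2 size factors added 0.19 and gave 850 and 713. Of the 38 cell cycle genes with at least 20 UMIs, 28 were at least 2-fold higher and 0 at least 2-fold lower. A gene with few uninjured UMIs could reach that minimum only through its injured UMIs, so these counts describe the genes and support nothing further. Over all 43, 41 had a higher CPM in injured cells and 2, Slbp and Mcm3, a lower one. Of the 38 genes, 36 had a log2 ratio above 0 and 2 below, against 3730 and 5336 of the 9066. These directions depended on the scaling. With TMM or with DESeq2 factors, 41 of the 42 cell cycle genes with a ratio or bound were above 0 and 1 below.

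**Figure D1:**
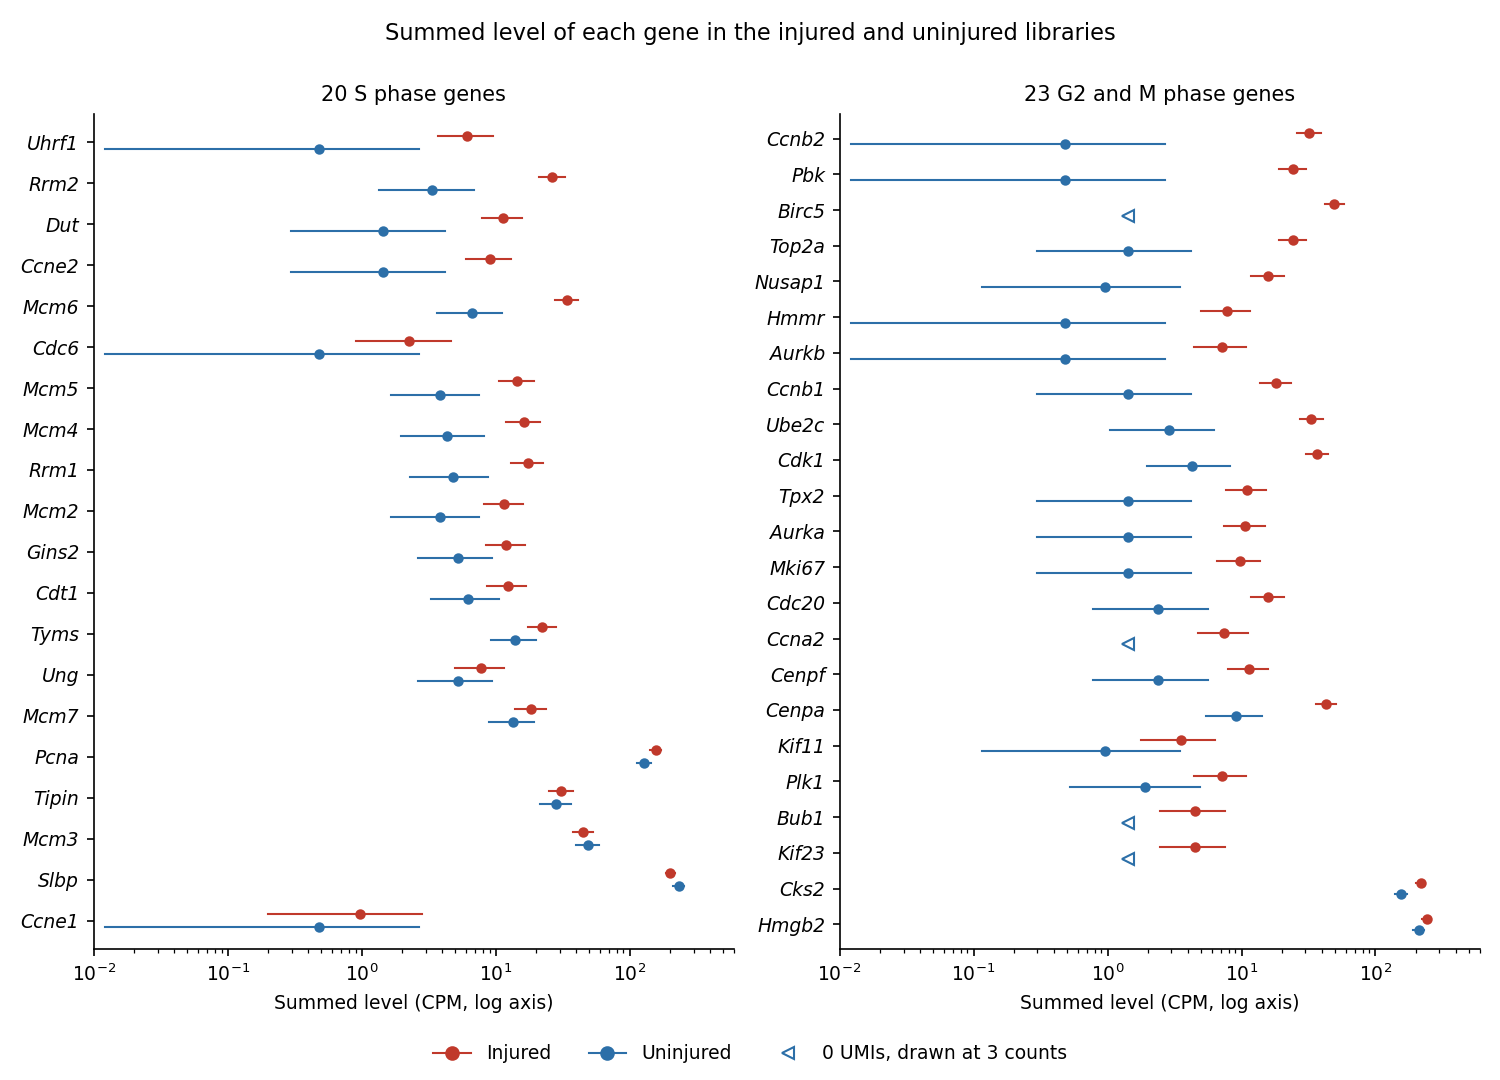
Summed level of each gene in CPM on a log axis, injured above uninjured in each row, with exact 95% Poisson intervals and open triangles at 3 counts for genes with 0 uninjured UMIs. Within each panel rows run from the largest log2 ratio at the top to the smallest, and Ccne1, which has no ratio, is last. Most G2 and M phase genes separate by a factor of several, whereas Slbp, Pcna, Mcm3, Tipin, Hmgb2 and Cks2 lie close together in both libraries.

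Among the regulators of mitotic entry, cyclin B2 (Ccnb2) had 99 injured UMIs against 1 uninjured UMI, a log2 ratio of 6.06 (3.55 to 11.38). Cyclin B1 (Ccnb1) had 56 against 3 (3.66, 2.04 to 5.98). Cyclin A2 (Ccna2), which acts from S phase into mitosis, had 23 against 0 and was at least 5.18-fold higher, with 0 set to the floor of 3 counts in the library. Cdk1 had 113 against 9 (3.09, 2.11 to 4.25). Of the 21 it was detected in the most injured cells, with at least 1 UMI in 76 injured cells (13.2%, 10.5 to 16.2) and 9 uninjured cells (1.29%, 0.594 to 2.44). Polo-like kinase 1 (Plk1) had 22 against 4 (1.89, 0.34 to 3.89), and Aurka, the spindle pole kinase, had 33 against 3 (2.89, 1.22 to 5.24). Cks2, the small partner of Cdk1, is given with Hmgb2 further on. Each of these cyclins and kinases was higher in the injured library by point ratio and by the lower end of its interval or bound.

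Birc5, which encodes survivin of the chromosomal passenger complex, had the most UMIs among the 21, with 153 injured UMIs (49.4 CPM) in 64 cells and 0 uninjured UMIs, and was at least 34.5-fold higher. It lies on chromosome 11 at 117849251 to 117855743 (GENCODE annotation of GRCm38, as for the positions that follow). Aurkb, the kinase of the same complex, had 22 against 1 (3.89, 1.27 to 9.26). Of the kinetochore and checkpoint genes, Cenpa, the centromeric histone, had 133 against 19 (2.24, 1.54 to 3.02) and was the most frequent of the 21 in uninjured cells. Cenpf had 35 against 5 (2.24, 0.88 to 3.95). Bub1, a checkpoint kinase, had 14 against 0 and was at least 3.16-fold higher. Bub1 and Birc5 shared their absence from uninjured cells with Ccna2 and Kif23, and 0 of 695 cells allows a share of up to 0.432% (3 counts over the cells), which limits cells with a UMI and not cells that express the gene.

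For spindle assembly, Tpx2, which activates Aurora A, had 34 against 3 (2.94, 1.27 to 5.29). Nusap1, a microtubule bundling protein, had 49 against 2 (4.05, 2.12 to 7.14). Hmmr had 24 against 1 (4.02, 1.40 to 9.38). The kinesin motor Kif11 had 11 against 2, and its interval held 0 (1.89, −0.30 to 5.11), and Kif23 had 14 against 0 (at least 3.16-fold higher). Top2a, the topoisomerase that separates replicated strands, had 75 against 3 (4.08, 2.48 to 6.39), on chromosome 11 at 98992943 to 99024189, and Mki67, the common proliferation marker, had 30 against 3 (2.76, 1.07 to 5.11). The mitotic kinase Pbk had 75 against 1 (5.66, 3.14 to 10.99). For mitotic exit, Cdc20 and Ube2c, which work with the anaphase-promoting complex, had 49 against 5 (2.73, 1.41 to 4.41) and 103 against 6 (3.54, 2.37 to 5.02). Among the 21 genes, 16 had an interval that lay above 0, 4 had a lower bound from 0 uninjured UMIs, and Kif11 was the exception. The share of all genes with an interval above 0 is not given here, so these counts only describe the 21.

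The S phase genes differed widely among themselves. Slbp, Pcna, Mcm3 and Tipin held 66.1% of the injured S phase UMIs and 85.4% of the uninjured ones. Scaled to total UMIs, their sum did not differ between the libraries beyond counting error, at 434 CPM against 439 CPM (log2 −0.02, −0.14 to 0.11). This depended on the scaling. TMM and DESeq2 factors add 0.15 and 0.19 to the ratio, and either turns the lower end of its interval (−0.14) positive. The other 16 held 223 CPM in injured cells against 75.0 CPM in uninjured cells, a log2 ratio of 1.57 (1.32 to 1.83). This division was made after the values were seen.

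Slbp, on chromosome 5 at 33634952 to 33652574, had 624 injured UMIs (202 CPM) against 487 uninjured UMIs (233 CPM), a log2 ratio of −0.21 (−0.38 to −0.03). Its ratio was −0.02 with DESeq2 size factors. Pcna, the sliding clamp of DNA polymerases, on chromosome 2 at 132249162 to 132253314, had 484 (156 CPM) against 270 (129 CPM), a log2 ratio of 0.28 (0.06 to 0.50). Mcm3 had 139 against 102 (−0.12, −0.50 to 0.27). Tipin, a replication fork protector, had 96 against 59 (0.14, −0.34 to 0.63) and had 15 against 32 once each cell was thinned to 1500 UMIs, the lower of the 2 being the injured library. In the uninjured library Slbp was detected in 43.6% of cells, Pcna in 29.4%, Mcm3 in 14.0% and Tipin in 8.35%. Of its 695 cells, 641 held 0 UMIs of the 21 G2 and M phase genes.

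Of the helicase subunits, Mcm6 had 105 against 14 (2.34, 1.53 to 3.26), Mcm5 45 against 8 (1.93, 0.83 to 3.22), Mcm4 50 against 9 (1.91, 0.87 to 3.12) and Mcm2 36 against 8 (1.61, 0.48 to 2.92). Mcm7 had 57 against 28, and its interval held 0 (0.46, −0.22 to 1.17). Thinned to 1500 UMIs per cell, Mcm2 was at 0.35 (6 UMIs against 5) and Mcm5 at 0.68 (9 against 6), both below 2-fold, and Mcm4 at 3.18 (17 against 2). The 6 subunits form 1 ring, and their ratios spread from −0.12 for Mcm3 to 2.34 for Mcm6. Of the licensing and initiation factors, Gins2 had 37 against 11 (1.19, 0.18 to 2.31), Cdt1 38 against 13 (0.98, 0.04 to 2.02) and Cdc6 7 against 1 (2.24, −0.72 to 7.74).

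Genes that supply nucleotides also differed among themselves. Rrm2, the regulated subunit of ribonucleotide reductase, on chromosome 12 at 24708241 to 24714146, had 82 injured UMIs (26.5 CPM) against 7 uninjured UMIs (3.34 CPM), a log2 ratio of 2.99 (1.88 to 4.34). Rrm1, the other subunit, had 54 against 10 (1.87, 0.88 to 3.01). Dut, which removes dUTP, had 35 against 3 (2.98, 1.31 to 5.33), and thymidylate synthase (Tyms) 69 against 29 (0.69, 0.04 to 1.36). The uracil glycosylase Ung had 24 against 11 (0.56, −0.52 to 1.74). Uhrf1, which maintains DNA methylation at forks, had 19 against 1 (3.68, 1.03 to 9.06) and stood exactly at the minimum of 20 UMIs. After thinning Dut was at 1.31 (7 against 3), and Uhrf1 had 4 against 0, a lower bound of 0.51. Cyclin E2 (Ccne2), which drives entry into S phase, had 28 against 3 (2.66, 0.96 to 5.02), while Ccne1 had 3 against 1, at or under the floor in both, so it was given no ratio. Over the 20 S phase genes the interval lay above 0 for 13, held 0 for 5 and lay below 0 for 1, Slbp. The share of all genes by this rule is not given here, so the counts only describe these 20.

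At least 3 UMIs over the 21 genes were found in 67 of 577 injured cells (11.6%, 9.11 to 14.5) and in 1 of 695 uninjured cells (0.144%, 0.00364 to 0.799). The 67 cells held 17.8% of all injured UMIs and 86.3% of the injured UMIs of these genes, by which they were chosen, so the cut fixes that share in part. The 10 cells with most of them held 476 of the 1167 UMIs (40.8%), up to 68, 63 and 62 in a cell, and without these 10 the summed log2 ratio was 2.76. The minimum of 3 is a point on a range of counts. In the injured library 28 cells held exactly 2 and 11 exactly 3, and in the uninjured library 51 held exactly 1, 2 held exactly 2 and 0 held exactly 3.

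**Figure D2:**
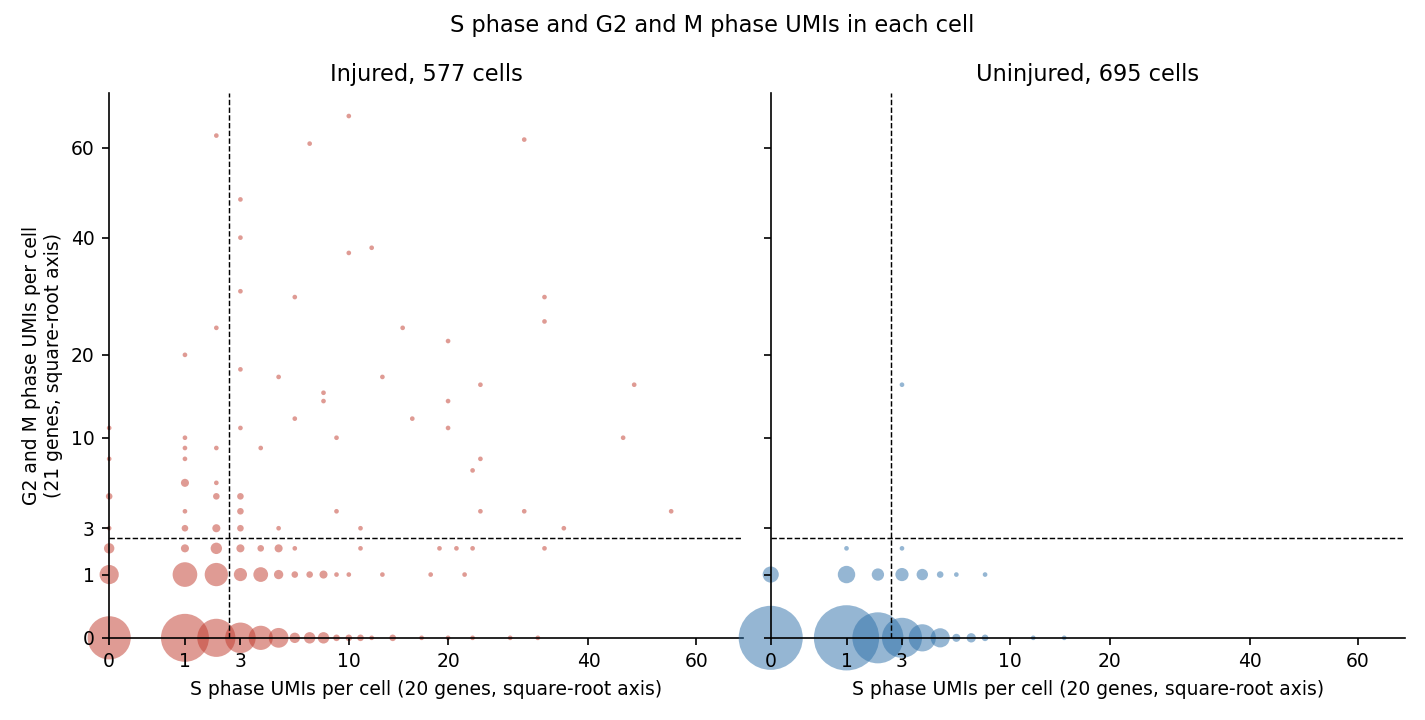
G2 and M phase UMIs (21 genes, vertical) against S phase UMIs (20 genes, horizontal) in each cell on square-root axes, injured cells left and uninjured cells right. The area of a disc is proportional to the number of cells at that pair of counts, and dashed lines mark the minimum of 3. The 67 injured cells above the horizontal line reach 68 UMIs, and 1 uninjured cell lies there, at 16.

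At least 3 S phase UMIs were found in 210 injured cells (36.4%, 32.5 to 40.5) and 156 uninjured cells (22.4%, 19.4 to 25.7). This share moved with depth and with the genes counted. With every cell thinned to 1500 UMIs, which left out 10 injured and 91 uninjured shallower cells, it was 9.17% (6.93 to 11.9) in injured cells against 7.12% (5.20 to 9.47) in uninjured cells, with overlapping intervals. Without Slbp, Dut, Tipin and Ung it was 17.9% against 5.32% at full depth. At the minimum, 107 injured cells held exactly 2 S phase UMIs and 65 exactly 3, against 127 and 84 uninjured cells. At least 10 S phase UMIs were held by 43 injured cells (median depth 8052 UMIs) and 2 uninjured cells, and after thinning by 2 of 567 injured and 0 of 604 uninjured cells. The share with at least 3 G2 and M phase UMIs after thinning was 4.41% (2.87 to 6.44) in injured cells against 0.166% (0.00419 to 0.919) in uninjured cells, and those intervals did not overlap.

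**Figure D3:**
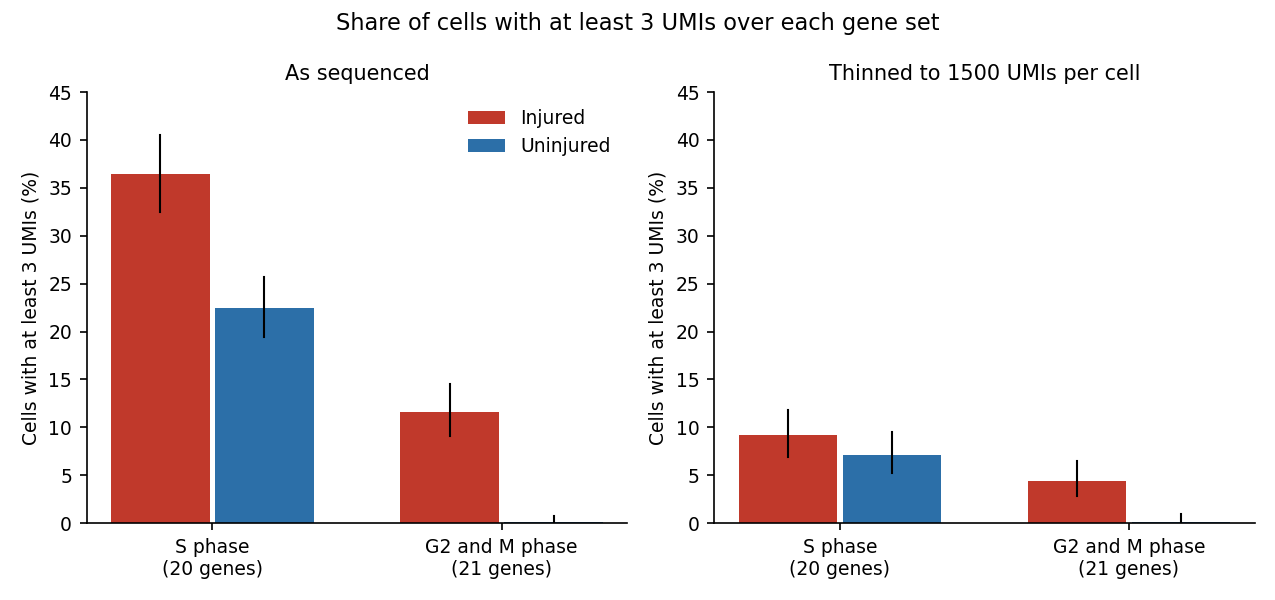
Percentage of cells with at least 3 UMIs over the S phase and the G2 and M phase genes, injured left of uninjured, as sequenced and thinned to 1500 UMIs per cell, with exact 95% binomial intervals. The G2 and M phase share stays apart after thinning (4.41% injured, 0.166% uninjured), whereas the S phase shares overlap (9.17% and 7.12%).

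By both counts, 43 injured cells held at least 3 UMIs of each set, 24 at least 3 of G2 and M phase alone, 167 at least 3 of S phase alone, 257 held 1 or 2 of either and 86 held none. Uninjured cells numbered 1, 0, 155, 350 and 189 in the same classes. Rrm2 had 86.6% of its injured UMIs in the cells with both, and Top2a 86.7%, while Mcm6 had 61.0%, Slbp 56.7% and Pcna 52.3% of theirs in cells with S phase UMIs alone. Birc5 had 69.9% in cells with both and 23.5% in cells with G2 and M phase UMIs alone. Cdk1 was the least confined of the 21, with 22.1% in cells with S phase UMIs alone. The classes were cut from these same counts, so the shares describe and do not test. Among the 32 injured cells with at least 10 G2 and M phase UMIs, 15 also held at least 10 S phase UMIs and 5 held fewer than 3. 1 injured cell held 63 G2 and M phase UMIs of 19 genes with 2 S phase UMIs, and another held 25 of 11 genes with 33 S phase UMIs of 15 genes.

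**Figure D4:**
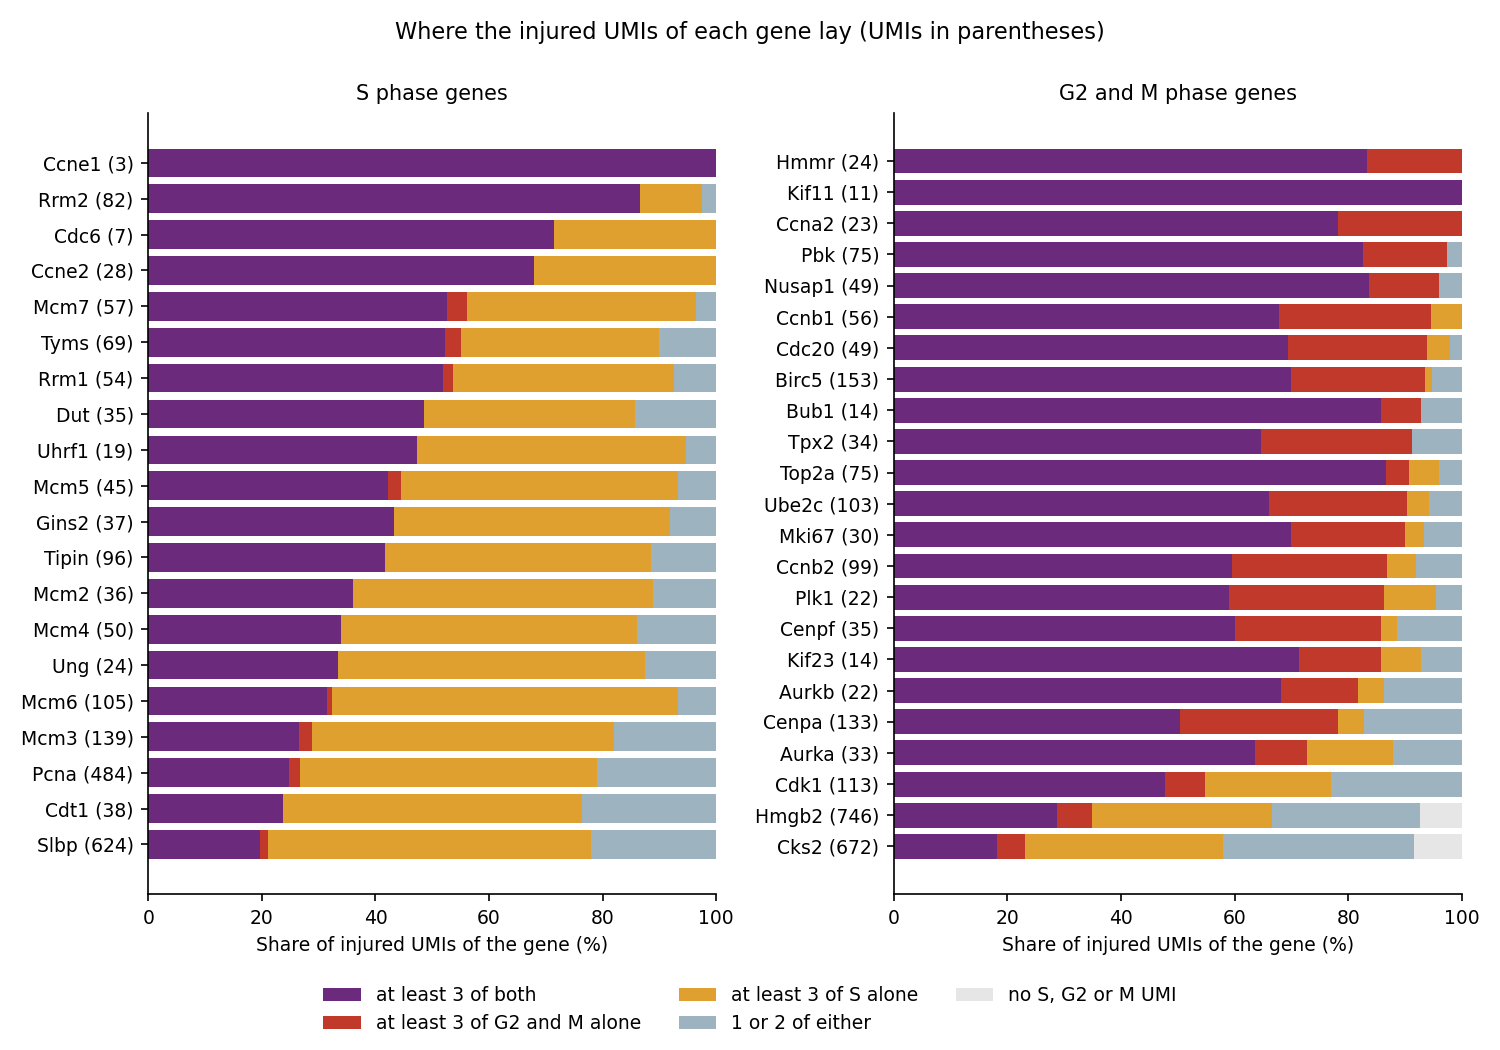
Share of the injured UMIs of each gene in 5 classes of injured cells, defined by at least 3 UMIs over the 20 S phase and over the 21 G2 and M phase genes, with the injured UMIs in parentheses. Rrm2 and Top2a lie almost wholly in cells with both, Slbp, Pcna and Mcm6 mostly in cells with S phase UMIs alone, and Hmgb2 and Cks2 reach cells with no other UMI of the 2 sets.

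Depth moved with the classes. The 67 cells had a median of 8055 UMIs (2335 to 18223), against 3935.5 in the 378 injured cells with 0 G2 and M phase UMIs. By depth quartile of the injured library, 4 of 144, 4 of 144, 15 of 144 and 44 of 145 cells held at least 3. Its part in the class sizes at full depth was not tested beyond the thinned shares. Of the 67, the 12 microglial markers summed to at least 4 UMIs in each, Tmem119 was detected in 60 and P2ry12 in 57. The border macrophage list summed to 112 CPM in them against 147 CPM in the 378. The monocyte list summed to 34.4 CPM (20.7 to 53.8) against 17.7 CPM (12.02 to 25.1). In the 60 of the 378 that lay in the top depth quartile, these lists were at 160 CPM and 5.46 CPM (3 UMIs, 1.13 to 15.96). The monocyte interval of the 67 thus overlapped that of the 378 and lay above that of the 60. The 19 monocyte UMIs of the 67 lay in 11 cells. Neutrophil markers were at 0 UMIs and the T and NK list at 1 UMI in the 67. Of the 62 border macrophage UMIs in the 67, 1 cell held 31. Among the 67, 2 barcodes had at least 3 markers of another cell type, 1 of them of oligodendrocyte precursors, with 24 G2 and M phase UMIs, and 1 of border macrophages. No doublet caller was run. Per the labels doublets were gated out by scatter before loading. Xist and Y-linked UMIs occurred together in 17 injured cells, 3 of them among the 67. As a measure of free RNA, barcodes with at least 3 endothelial markers were few, and 0 of 1 injured (2119 UMIs) and 0 of 4 uninjured (median 1737 UMIs) held a G2 or M phase UMI, too few to set a background, so its part was not tested.

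Xist had 958 UMIs in the injured library against 8 in the uninjured one, so the share was also taken by sex-linked UMIs. Among cells with Y-linked UMIs and no Xist UMI, 15 of 147 injured cells (10.2%, 5.82 to 16.3) and 0 of 235 uninjured cells held at least 3 G2 and M phase UMIs. Among injured cells with Xist and no Y-linked UMI it was 30 of 213 (14.1%, 9.71 to 19.5), an interval that overlapped the one for Y-linked UMIs alone. The cells with Y-linked UMIs alone had a median of 4599 UMIs in the injured library and 3448 in the uninjured one. The part of the sex of the animals in the results was not tested.

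The S phase genes were not themselves used to choose the 67 cells. Both groups compared here were chosen by G2 and M phase UMIs, so other cell cycle genes could differ by that choice. The S phase levels therefore describe the 67 cells and are no support for their division. They summed to 1234 CPM in the 67 cells against 517 CPM in the 378 injured cells with 0 G2 and M phase UMIs, a log2 ratio of 1.25 (1.11 to 1.40), and 1.08 (0.89 to 1.28) against the 60 of the 378 that lay in the top depth quartile. Of the 19 S phase genes with a ratio or bound against the 378, 15 were at least 2-fold higher and 0 at least 2-fold lower, where 10.4% of all genes with a ratio or bound were higher and 9.49% lower. Against the 60 deep cells 11 of 19 were higher and 0 lower, where 12.2% of all such genes were higher and 8.21% lower. Rrm2 was at 129 CPM (71 UMIs in 19 cells) against 3.42 CPM (6 UMIs) in the 378, a log2 ratio of 5.23 (4.04 to 6.73), and at 3.82 (2.53 to 5.49) against the 60. Ccne2 was at 3.92 (2.33 to 5.93) against the 378 and 2.66 (0.89 to 5.06) against the 60. Tyms was at 3.01 (2.11 to 3.98) and 2.07 (1.00 to 3.31) in the same comparisons, and Rrm1 at 2.83 (1.84 to 3.89) and 2.04 (0.82 to 3.48). On few UMIs, Cdc6 was at 3.99 (0.83 to 9.55) and 2.32 (−0.84 to 7.88), and Uhrf1 at 2.84 (1.00 to 4.99) and a lower bound of 1.58. The ratios of Rrm2, Ccne2, Tyms, Rrm1 and Cdc6 were each smaller against the 60 than against the 378. Slbp went the other way, at 0.27 (−0.03 to 0.56) against the 378 and 0.59 (0.19 to 1.00) against the 60. Its interval held 0 only against the 378. Cdt1 was at 0.25 (−1.04 to 1.41) against the 378 and at −0.0065 against the 60, and both of its intervals held 0. Cells share a library and UMIs of a cell are not independent, so these intervals are too narrow for a difference between cells.

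Among cells with 0 G2 and M phase UMIs, 378 injured and 641 uninjured, the summed S phase level was 517 CPM against 507 CPM, a log2 ratio of 0.03 (−0.10 to 0.16). Without Slbp, Dut, Tipin and Ung the ratio was 0.26 (0.07 to 0.44). Of 18 S phase genes with a ratio or bound, 7 were at least 2-fold higher and 0 at least 2-fold lower, where 8.73% of all such genes were higher and 14.9% lower. Dut (2.71, 0.54 to 5.91), Mcm6 (1.56, 0.65 to 2.56), Mcm4 (1.29, 0.02 to 2.70) and Cdt1 (1.25, 0.16 to 2.43) had intervals above 0 there, and Slbp one below 0 (−0.23, −0.44 to −0.02). Tyms was at −0.78 (−1.79 to 0.18) and Rrm2 at 0.12 (−1.78 to 2.03). A cell with few UMIs is more likely to show none of the 21 genes, and the injured cells were deeper, at a median of 3935.5 against 2995 UMIs.

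**Figure D5:**
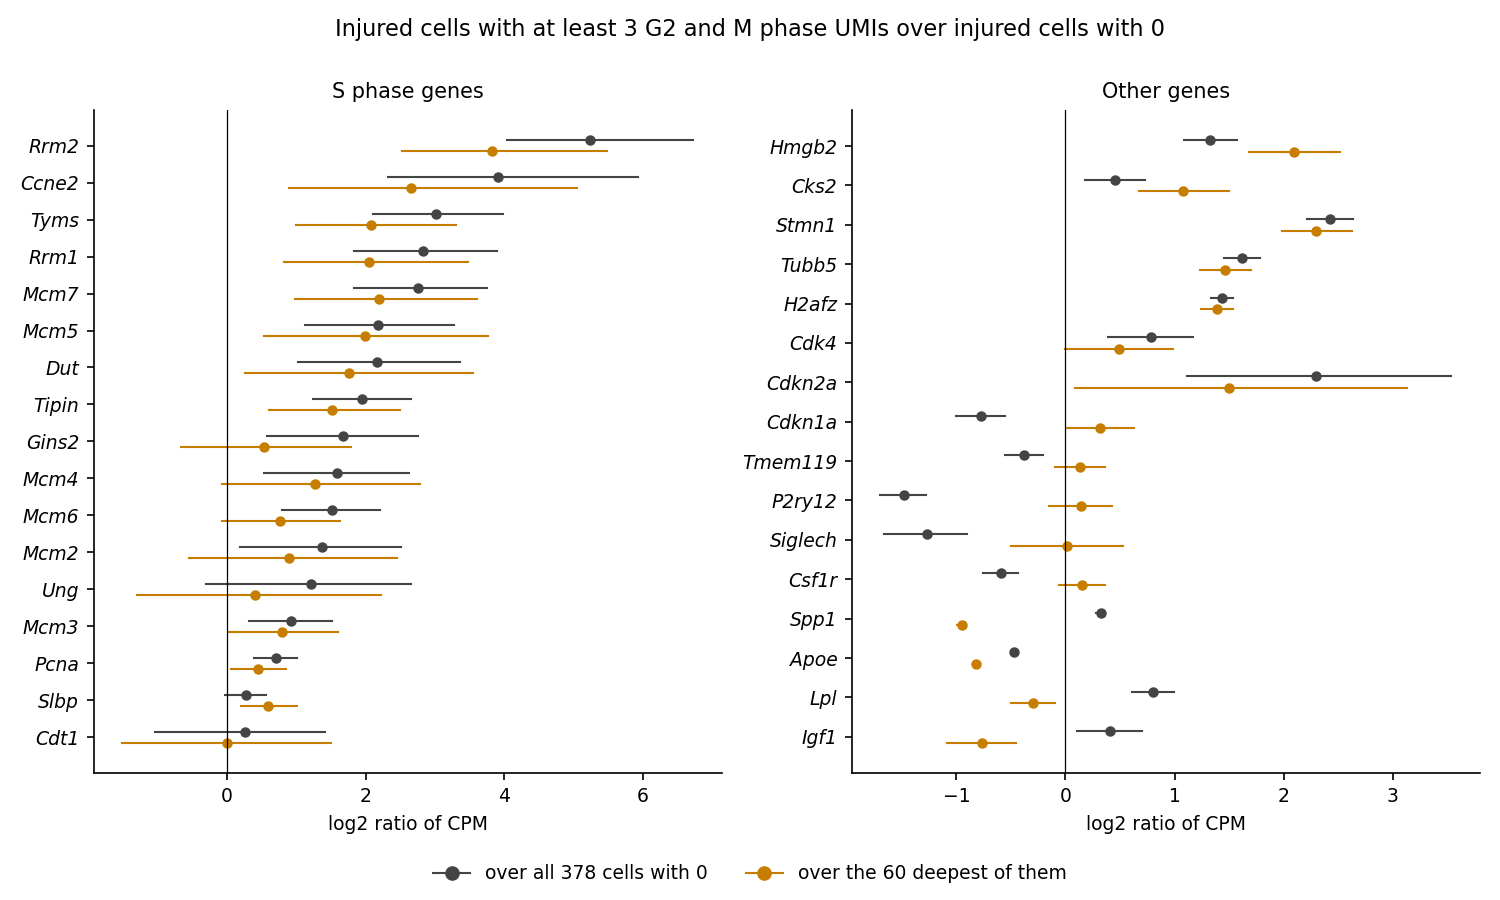
Log2 ratio of CPM in the 67 injured cells with at least 3 G2 and M phase UMIs over all 378 injured cells with 0 (dark, upper) and over the 60 of them in the top depth quartile (amber, lower), with exact 95% counting intervals. Cdc6, Ccne1 and Uhrf1 are left out for too few counts. Rrm2 and Ccne2 lead the plotted S phase genes in both, whereas P2ry12, Siglech, Spp1, Lpl, Igf1 and Cdkn1a depend on which cells they are set against.

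Hmgb2 and Cks2 differed far less between the libraries than the other 21 together. Hmgb2, a chromatin protein that binds bent DNA, had 746 injured UMIs (241 CPM) in 57.5% of cells against 440 uninjured UMIs (210 CPM) in 37.8% of cells, a log2 ratio of 0.20 (0.03 to 0.37), and thinning to equal depth took it to −0.00043. Cks2 had 672 (217 CPM) in 53.6% of cells against 325 (155 CPM) in 29.4% of cells, a log2 ratio of 0.48 (0.29 to 0.68). In cells with no UMI of the other 41 genes, 86 injured and 189 uninjured, Hmgb2 was at 189 CPM against 178 CPM (log2 0.09, −0.44 to 0.60) and Cks2 at 192 CPM against 99.0 CPM (0.96, 0.36 to 1.56). Both were therefore present where no other gene of the set was detected. Within the injured library Hmgb2 was also higher in the 67 cells, at 473 CPM against 188 CPM in the 378 with 0 (log2 1.33, 1.09 to 1.57), and Cks2 at 281 CPM against 205 CPM (0.46, 0.17 to 0.73). In the 60 deep cells Hmgb2 was at 111 CPM, a log2 ratio of 2.09 (1.68 to 2.52), and Cks2 at 133 CPM, a log2 ratio of 1.08 with 0.67 as the lower end of its interval, both larger than against the 378. Neither was used to choose those cells, but the cells were chosen by other cell cycle UMIs, so these ratios describe and do not test. In cells with both sets Hmgb2 reached 574 CPM (500 to 657), against 259 CPM (190 to 346) in cells with G2 and M phase UMIs alone.

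Other genes of the same pathways, listed without regard to how they moved here but with earlier results of these data known, are given next. Of 28 further mitosis genes with at least 20 UMIs, 19 were at least 2-fold higher and 1, Ncaph with 8 UMIs against 14, lower (median log2 1.84), led by Cenpw, a kinetochore protein, with 39 UMIs against 1 (4.72, 2.16 to 10.06), Cdca8 with 55 against 2 (4.22, 2.30 to 7.30), Racgap1 with 58 against 3 (3.71, 2.09 to 6.03) and Knstrn with 43 against 0 (at least 9.69-fold higher). Of 28 further replication genes, 8 were higher and 0 lower (median 0.51), led by thymidine kinase Tk1 at 2.36 (1.01 to 4.06), Mcm10 with 19 UMIs against 3, the DNA ligase Lig1 at 2.04 (1.07 to 3.17) and the Cdt1 inhibitor Gmnn at 1.88 (0.94 to 2.96). Of 13 tubulin and chromatin genes 1 was higher, Hmgb3 at 1.02 (−0.18 to 2.38). The next were Stmn1 at 0.98 (0.80 to 1.17), Ran at 0.85 (0.69 to 1.02) and Tubb4b at −0.67 (−0.93 to −0.40). These counts read against 7.22% higher and 11.5% lower over all genes. The lists held 50 mitosis and 36 replication genes, and the rest fell under the minimum of 20 UMIs. A gene with few uninjured UMIs could reach that minimum only through its injured UMIs. The counts here and for the regulators that follow therefore describe the genes and support nothing further.

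Regulators of the start of the cycle were counted against the same 7.22% and 11.5%. None of 6 G1 cyclins and kinases passed 2-fold in either direction (0 higher, 0 lower). Ccnd2 was at −0.86 (−1.39 to −0.34), Ccnd1 at −0.42 (−0.71 to −0.12), Ccnd3 at 0.60 (0.08 to 1.14) and Cdk2 at 0.22 (−0.28 to 0.73). Of 5 inhibitors 1 was higher, Cdkn2a of the senescence-linked Ink4a and Arf locus, with 34 UMIs against 4 (2.52, 1.04 to 4.48). Cdkn1b was at −0.49 (−1.05 to 0.08), Cdkn2c at −0.34 (−1.02 to 0.34) and Cdkn2d at −0.20 (−0.62 to 0.22). Of 12 E2F, retinoblastoma and DREAM genes, 2 were higher and 1 lower. E2f1, an activating E2F, had 24 against 1 (4.02, 1.40 to 9.38), Rbl1 30 against 6 (1.76, 0.47 to 3.31), Rbl2, a pocket protein of resting cells, 8 against 15 (−1.47, −2.92 to −0.14), and Lin37 62 against 59 (−0.49, −1.03 to 0.05). In the 67 cells E2f1 was at 9.06 CPM (5 UMIs) against 7.42 CPM (13 UMIs) in the 378 with 0 (log2 0.29, −1.55 to 1.87). Cdkn2a was at 30.8 CPM against 6.28 CPM in the same cells (log2 2.30, 1.12 to 3.54). Against the 60 deep cells E2f1 was at −1.01 (−2.91 to 0.68) and Cdkn2a was at 30.8 CPM against 10.9 CPM, with an interval of 0.09 to 3.13 for its log2 ratio.

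The 15 outside genes highest in the 67 cells, by the lower bound against the 86 injured cells with no S, G2 or M phase UMI, were mainly division genes, 9 of them from the list of further mitosis genes. That list held 50 genes, and 6951 genes were ranked. Both groups of cells were chosen by their cell cycle UMIs, so other division genes would rank high by that choice. The ranking describes the 67 cells and is no support for their division. Cdca3 had 57 UMIs against 0, Cdca8 53 against 0, Racgap1 52 against 0, Tacc3 41 against 0, Spc25 37 against 0, Cenpe 34 against 0, Knstrn 29 against 0, Smc2 73 against 3 and Cks1b 93 against 5. Cdkn3, a phosphatase of Cdk1 and Cdk2, had 36 against 1. Stmn1, a microtubule destabiliser, was at 895 CPM in the 67 against 158 CPM in the 86 and 182 CPM in the 60 deep cells. Iigp1, an interferon-induced GTPase, had 46 UMIs in 8 of the 67 cells against 1, of which 2 cells held 32. Loxl2 had 58 in 7 cells against 3, of which 2 cells held 53. Dqx1 had 32 UMIs in 2 of the cells against 0, and 35 UMIs in the uninjured library as a whole. The chemokine Cxcl2 was at 3324 CPM in the 67 against 899 CPM in the 86, but at 3033 CPM in the 60 deep cells.

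The microglial state of the 67 cells depended on what they were set against. Against all 378 injured cells with 0 G2 and M phase UMIs, the purinergic receptor P2ry12 was at 379 CPM against 1059 CPM (log2 −1.48, −1.70 to −1.28), and against the 60 deep cells at 379 CPM against 344 CPM (0.14, −0.15 to 0.43). Tmem119 was at −0.38 and 0.13 in the same comparisons. Spp1, which encodes osteopontin, was at 13591 CPM against 10877 CPM in the 378 (0.32, 0.28 to 0.36) and 26275 CPM in the 60 (−0.95, −0.99 to −0.91). Apoe was lower against both, at −0.47 and −0.82. Spp1 in single cells ran between 0 and 614 UMIs, with a median of 54, and was at 0 in 2 of the 67. Tubb5 (1.61 and 1.47), H2afz (1.43 and 1.39) and Stmn1 (2.43 and 2.30) had like ratios in both comparisons. Among the marker lists, interferon genes summed to 3641 CPM in the 67 against 2244 CPM in the 378 and 2527 CPM in the 60. Per cell their median was 17 UMIs in the 67, 5 in the 378 and 16 in the 60, and the highest 188, 113 and 113.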

How the data were processed

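Per the labels' protocols, cells were sorted for tdTomato with doublets gated out by scatter and made into droplet libraries with UMIs. The deposited values are raw UMI counts per gene and cell, and the submitters' processing notes name Cell Ranger 2.0.1, STAR, Seurat 2.1.0 and builds GRCm38.p5 and mm10. The genes and lists were chosen with earlier results of these data known. Cells with at least 200 genes and at most 10% mitochondrial UMIs were kept, counts were summed per library (Python 3.11.15, numpy 2.4.6, pandas 2.3.3), and exact intervals at 95% were computed with scipy 1.17.1. Genes with at least 20 UMIs over both libraries were counted at 2-fold. The text names all 43 genes, up to 4 genes per other list with the largest change, and 15 outside genes by lower bound. Genes with 0 UMIs in a library were set to 3 counts. Alternatives were other minimums and cuts, thinning, TMM (edgeR 4.0.16), DESeq2 1.42.0 size factors (R 4.3.3) and left-out cells. Calculations were tested on simulated counts. No clustering or doublet caller was run. With 1 library per group no edgeR or DESeq2 test was made.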

Additional observations from a re-analysis of the deposited data

How the results depend on the processing

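No paired analysis was possible because each group was 1 library, and for the same reason no replicate could be left out. The summed S phase log2 ratio of 0.35 moved to 0.50 with TMM factors, 0.54 with DESeq2 size factors, 0.25 after thinning to 1500 UMIs and 0.64 in cells with Y-linked and no Xist UMIs. The G2 and M phase ratio of 3.47 moved to 3.11 after thinning and 2.76 without the 10 injured cells with most of these UMIs, a choice made after seeing the data. Genes at least 2-fold higher numbered 10 of 18 for S phase, and 1 of 5 at a minimum of 100 UMIs, 3 of 11 at a minimum of 10 uninjured UMIs, 3 of 8 after thinning and 4 of 10 in Y-linked cells. They numbered 18 of 20 for G2 and M phase, and 5 of 7, 1 of 3, 4 of 6 and 3 of 5 under the same alternatives, in which fewer genes met the minimum, and over all genes 5.30%, 3.85%, 5.40% and 6.19% were higher, against 7.22%. The injured S phase share of 36.4% was 54.9% at a minimum of 2 UMIs, 18.2% at 5, 9.17% after thinning, 43.5% in Y-linked cells and 17.9% without Slbp, Dut, Tipin and Ung, and the uninjured share of 22.4% was 40.7%, 4.60%, 7.12%, 27.7% and 5.32%. The injured G2 and M phase share of 11.6% was 16.5% at 2, 8.49% at 5 and 4.41% after thinning, and the uninjured one was 0% in Y-linked cells. Hmgb2 changed sign after thinning (−0.00043). Leaving out barcodes with markers of other cell types moved neither sum nor share beyond counting error and neither count by 1.5 times, and leaving out those with both Xist and Y-linked UMIs, run for the shares, moved none of them; both were chosen after seeing the data. Where no construction of an alternative shows it, the cause was not tested. Depth limits the genes with 0 to 3 uninjured UMIs, 20 of the 43 (4 at 0 and 16 at 1 to 3).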

Other observations

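The single uninjured cell with at least 3 G2 and M phase UMIs held 16 of them from 10 genes, with 3 S phase UMIs among 3671 in all. It held 9 UMIs each of Hmgb2 and Cks2, 5 of Tmem119, 2 of P2ry12, and 0 of Spp1 and Apoe. Among the 67 injured cells, Apoe ran from 2 to 875 UMIs with a median of 135, and 12 of the 43 injured cells with at least 10 S phase UMIs held 0 G2 and M phase UMIs.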
